A study of Mus musculus with 12 samples.

Results

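The genes described here encode the receptors with which cells recognise microbial molecules, and the enzymes and adaptors that act directly below them. They were taken by gene symbol from a table of TPM, a measure of each transcript's share of a library after scaling by length. The rule took every numbered Toll-like receptor (Tlr), every numbered Nlrp, Nlrc and Nlrx gene except Nlrc5, Nod1 and Nod2, every numbered caspase and every symbol beginning with Clec and a digit from 1 to 9. To these it added Naip1, Naip2, Naip5, Naip6, Aim2, Pycard, Myd88, Ticam1, Cd14 and Ly96. It found 90 genes among the 27179 in the table. No expression value entered the choice, and GENCODE vM21 (GRCm38) gave a position for 89 of the 90.

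The tissue was mouse colon, cut through its full thickness at the point where an ink-marked solution had been injected into the muscle wall during surgery. The 5 control libraries came from R26-iDTR mice and the 7 ablated libraries from BAF53b-Cre::R26-iDTR mice. In the latter, Cre recombinase switches on a diphtheria toxin receptor in cells that use the promoter of BAF53b, a chromatin remodelling subunit of mature neurons, so that the toxin kills those cells. Every mouse of both groups received 4 µL of diphtheria toxin at 0.33 ng/µL in 10% India ink and underwent the same surgery, so surgery, ink and toxin are common to controls and ablated mice. The labels give neither the time after injection nor age or sex, and they do not say that each library is 1 mouse. The p-values below therefore measure the spread between these libraries. Tissue outside the injected spot was not sampled.

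Library depth, recovered from the steps in the TPM values, was 13365756 to 26869845 reads per library, so that 1 read on a transcript of 1 kilobase was worth 0.0697 to 0.129 TPM. Ablated 1 was the shallowest library and had 18.7% of its reads on mitochondrial genes, against 3.56 to 10.4% in the others. The summed TPM of 6 neuron markers was 69.1 to 179 in controls and 11.3 to 26.2 in ablated libraries, and all 6 fell (limma, adjusted p under 0.05). Markers of colonic epithelium summed to 6243 to 7675 TPM in controls and 4441 to 9557 TPM in ablated libraries, and those of smooth muscle to 4522 to 6921 and 5640 to 17764 TPM. The muscle sum was highest in ablated 6.

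Toll-like receptors sit in the plasma membrane or in endosomes, bind lipoproteins, lipopolysaccharide, flagellin or nucleic acids, and signal through the adaptors MyD88 and TRIF towards NF-kB and interferon genes. NOD-like receptors and AIM2 act in the cytosol. Several of them assemble with the adaptor ASC into an inflammasome, a platform on which caspase-1 is activated and then cleaves pro-interleukin-1β, pro-interleukin-18 and gasdermin D. C-type lectin receptors of myeloid cells recognise sugars of fungi, bacteria and dying cells. In the colon the epithelium and the resident macrophages both carry such receptors, and full-thickness tissue mixes them with muscle, nerve and stroma.

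None of the receptor, adaptor or caspase genes passed the test between ablated and control colon. Of the 90 genes, 59 had at least 0.5 TPM in at least 5 libraries and were tested. Among those 59, 0 were called in either direction by limma on log2(TPM + 0.5) at an adjusted p under 0.05, while 1.43% of the 16164 genes tested were called, with 0.421% of all higher and 1.01% lower. At an unadjusted p under 0.05 there were 8 members, 6 higher and 2 lower, which is 13.6% of those tested. Over all genes 11.8% had such a p, 7.07% higher and 4.75% lower. By limma-voom on the recovered reads the counts were 0 called, against 1.66% of all genes, and 6 at an unadjusted p under 0.05. For voom, the share of all genes at that unadjusted threshold was not taken. The median log2 difference (ablated minus control, as throughout) was 0.00 over the 59 members and 0.03 over all genes, with 30 members above 0 and 29 below, and the members ranged from -0.91 to 0.55.

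The test bounded most of these genes without excluding small differences. For 46 of the 59 the whole 95% interval lay within 1 log2 unit of 0, which also held for 84.5% of all genes tested. The median SD of a library around its group mean on the log2 scale was 0.374 for the members and 0.322 for all genes. The 90 genes together took 1964 ± 67.4 TPM (SD, n = 5) in controls and 1975 ± 167 TPM (SD, n = 7) in ablated libraries. In bulk tissue, fewer cells of a type and less RNA per cell cannot be told apart, and this applies to every difference given here. Calls appeared in some alternative fits. With a weight for each library 4 members were higher and 1 lower, against 4.05% and 2.71% of all genes and 6.76% in either direction. With the mitochondrial share as a covariate 1 was higher and 2 lower, against 2.08% and 2.34% of all genes and 4.43% in either direction. Without ablated 5, Naip6 was the only one of the 59 to pass, against 1.47% of all genes.

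**Figure D1:**
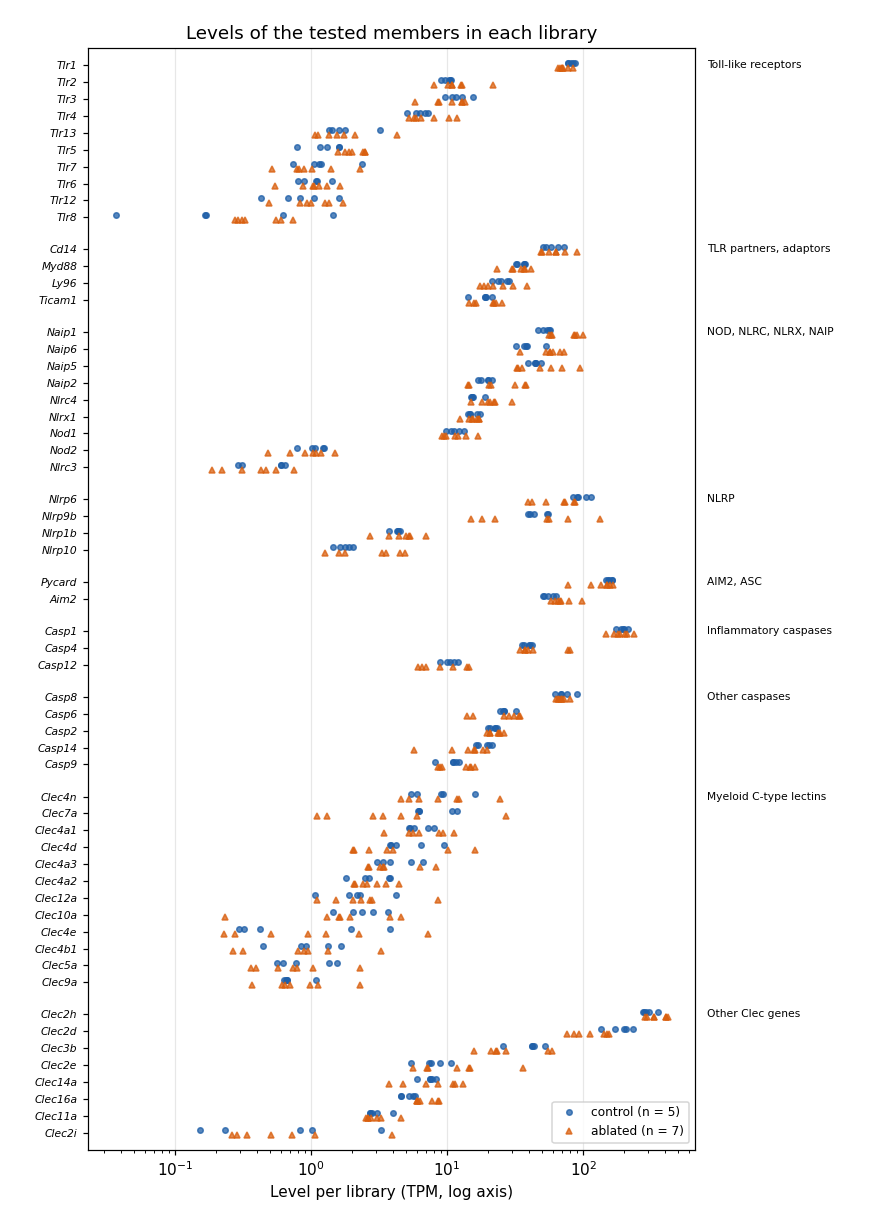
TPM (log10 axis) of 57 tested receptor, adaptor, caspase and lectin genes, 1 row per gene grouped by role, with each of the 5 control and 7 ablated libraries as a point. Clec2h, Casp1, Clec2d and Pycard have means above 100 TPM, and the points of both groups overlap in every row except Clec16a.

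**Figure D2:**
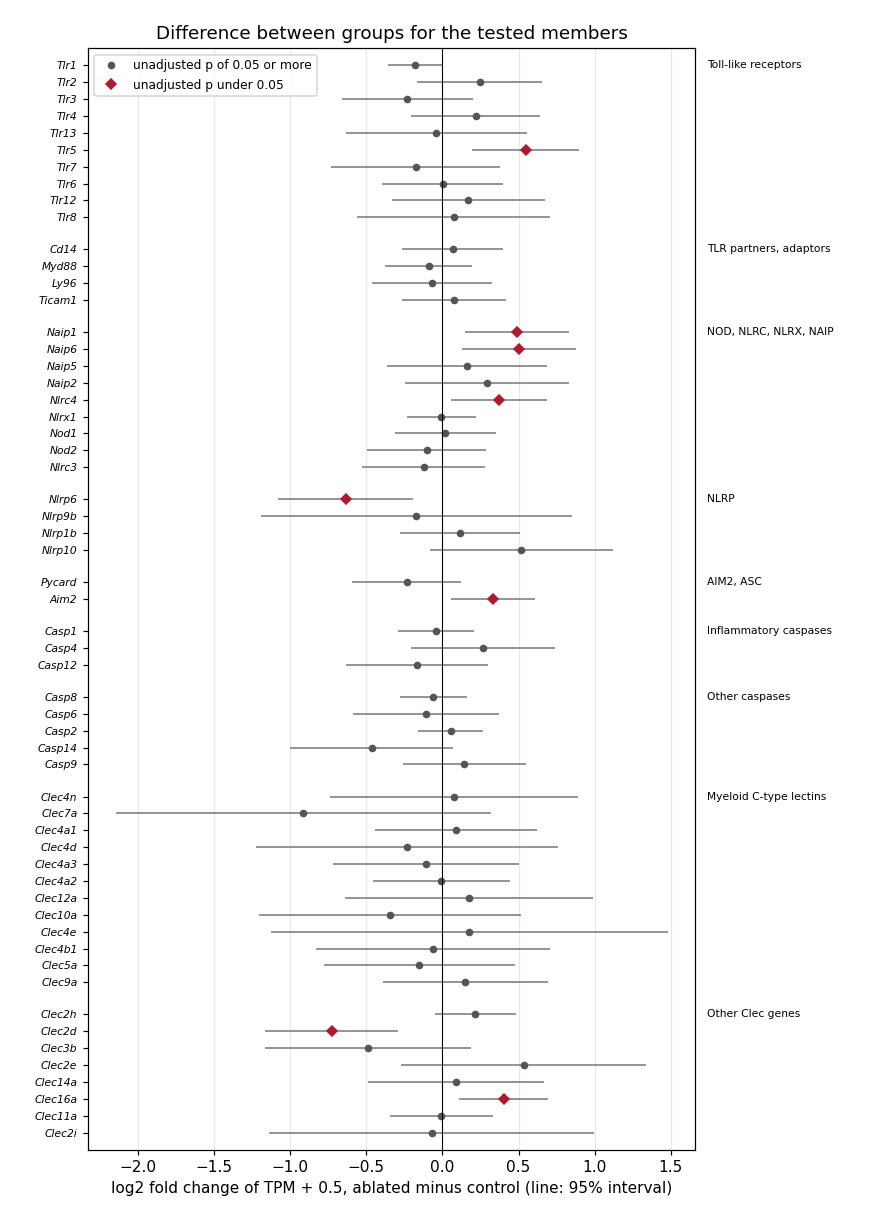
Log2 difference in TPM + 0.5 (ablated minus control) with its 95% interval for 57 of the genes tested, ordered by role. The estimates run from -0.91 for Clec7a to 0.55 for Tlr5, and no gene passed an adjusted p of 0.05. Wide intervals belong to Nlrp9b, Clec2e, Clec2i and several myeloid lectins.

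The 12 Toll-like receptor genes were led by Tlr1, whose product pairs with TLR2 to bind bacterial lipopeptides. Tlr1 (Entrez 21897, chr5:64924679-64933563 in GRCm38) stood at 81.2, 86.7, 83.4, 77.7 and 77.5 TPM in controls 1 to 5, and its lowest, median and highest ablated values were 65.4, 70.1 and 83.4 TPM. All but ablated 1 lay below every control library. The difference was -0.18 (95% interval -0.36 to 0.00), with an adjusted p of 0.431 by limma and an unadjusted one of 0.0525. Of 75-base windows in the Tlr1 transcripts, 10.6% also occur in other genes, chiefly its neighbour Tlr6, so reads may be divided between them.

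Tlr5, the receptor for bacterial flagellin, gave the highest log2 difference among the 59 and lay near the bottom of the measured range. Its control values were 1.30, 0.793, 1.17, 1.59 and 1.60 TPM, and its ablated values were 1.57, 2.02 and 2.51 TPM (lowest, median, highest). The ablated libraries exceeded the highest control in 6 of 7 cases. The difference of 0.55 (95% interval 0.19 to 0.90) had an adjusted p of 0.156 by limma, and rested on 245 reads in all controls and 581 in all ablated libraries. The gene passed with a weight for each library, at an adjusted p of 0.0426.

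Tlr2, the shared partner for lipopeptide recognition, was at 10.0 ± 0.645 TPM (SD, n = 5) in controls and 12.5 ± 4.46 TPM (SD, n = 7) in ablated libraries, and its difference was 0.24 (95% interval -0.17 to 0.66). The highest library was ablated 6, at 21.9 TPM. Tlr3, an endosomal sensor of double-stranded RNA, measured 12.1 ± 2.19 TPM (SD, n = 5) in controls and 10.5 ± 2.86 TPM (SD, n = 7) in ablated libraries, a difference of -0.23. Tlr4, the lipopolysaccharide receptor, measured 6.27 ± 0.851 TPM (SD, n = 5) in controls and 7.63 ± 2.51 TPM (SD, n = 7) in ablated libraries, a difference of 0.22. For all 3 of these receptors the SD was larger in the ablated libraries than in the controls. The adjusted p-values of Tlr2, Tlr3 and Tlr4 by limma were 0.709, 0.747 and 0.763. Tlr13, Tlr7, Tlr6, Tlr12 and Tlr8, which include the endosomal sensors of bacterial and viral RNA, had control means of 1.87, 1.30, 1.06, 0.922 and 0.492 TPM and ablated means of 1.89, 1.10, 1.08, 1.08 and 0.441 TPM. The control mean of Tlr8 includes 1.46 TPM in control 4 and was 0.250 TPM without it. Tlr9 and Tlr11 were under the minimum for testing, at control means of 0.388 and 0.190 TPM and ablated means of 0.419 and 0.214 TPM.

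The 4 partners of the Toll-like receptors had means of 19.3 to 62.1 TPM over the 12 libraries, and none passed the test. Cd14, which hands lipopolysaccharide to TLR4, stood at 71.8, 50.6, 58.1, 65.6 and 53.5 TPM in controls and at 49.0, 63.5 and 90.2 TPM in the ablated libraries (lowest, median, highest). Both the highest and the lowest library were ablated ones. Its difference was 0.07 (95% interval -0.26 to 0.40). Myd88, the adaptor of most Toll-like receptors and of the interleukin-1 receptors, measured 35.1 ± 2.70 TPM (SD, n = 5) in controls and 33.4 ± 5.98 TPM (SD, n = 7) in ablated libraries. Its difference of -0.09 (95% interval -0.37 to 0.20) lay within 1 log2 unit of 0 over its whole interval. Ly96, which encodes the MD-2 subunit of the lipopolysaccharide receptor, gave 25.1 ± 2.79 TPM (SD, n = 5) in controls and 24.7 ± 7.62 TPM (SD, n = 7) in ablated libraries, and Ticam1, which encodes the adaptor TRIF used by TLR3 and TLR4, gave 18.6 ± 2.66 TPM (SD, n = 5) in controls and 19.8 ± 4.17 TPM (SD, n = 7) in ablated libraries. Their differences were -0.07 and 0.08, and the adjusted p-values of all 4 by limma were 0.892 or more.

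Of the 9 tested NOD, NLRC, NLRX and NAIP genes, 3 had an unadjusted p under 0.05, all of them higher, and 0 passed the adjustment by limma. Of all genes tested, 7.07% were higher with such a p. The 3 were Naip1, Naip6 and Nlrc4. Naip1 and Naip6 share transcript sequence, as given below, so the 3 may not be independent. NAIP proteins bind bacterial flagellin or parts of the type III secretion needle and then recruit NLRC4 into an inflammasome. Naip1 (Entrez 17940, chr13:100407764-100452869) was at 56.3, 46.7, 57.4, 54.5 and 50.9 TPM in controls and 56.0, 85.4 and 100.3 TPM in ablated libraries (lowest, median, highest). Only 1 ablated library fell inside the control range. The difference was 0.49 (95% interval 0.15 to 0.83), unadjusted p 0.00857, adjusted p 0.197 by limma.

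Naip6, one of the flagellin-binding members, was at 31.9, 37.0, 38.8, 38.1 and 53.3 TPM in controls and 34.1, 56.6 and 71.7 TPM in ablated libraries. Here 6 ablated libraries exceeded every control, the last of them by a narrow margin, and ablated 5 was lower than 4 of the controls. The difference of 0.50 (95% interval 0.13 to 0.88) had an adjusted p of 0.234 by limma, which became 0.0414, with a difference of 0.62, when ablated 5 was left out. Nlrc4 stood at 18.9, 15.1, 15.4, 15.2 and 15.2 TPM in controls and at 14.9, 20.5 and 29.8 TPM in ablated libraries, and 5 of the 7 lay above the highest control. Its difference was 0.37 (95% interval 0.06 to 0.69), adjusted p 0.311. The Naip5 and Naip2 products bind flagellin and a needle-complex rod protein. Naip5 measured 44.2 ± 3.40 TPM (SD, n = 5) in controls and 53.0 ± 22.9 TPM (SD, n = 7) in ablated libraries, with a difference of 0.16 (95% interval -0.37 to 0.69). Naip2 measured 19.1 ± 1.78 TPM (SD, n = 5) in controls and 25.2 ± 10.2 TPM (SD, n = 7) in ablated libraries, with a difference of 0.29 (95% interval -0.24 to 0.83). Each had 3 ablated libraries above all controls and at least 2 below all controls.

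The Naip genes lie side by side on chromosome 13 and resemble one another. Windows of 75 bases shared with other genes made up 23.8% of those in the transcripts of Naip5, 20.5% for Naip1, 12% for Naip6 and 10.7% for Naip2, so the division of reads among them is uncertain. Nlrx1, a mitochondrial NOD-like protein, was at 15.6 TPM in controls and 15.5 TPM in ablated libraries, a difference of -0.01 (95% interval -0.24 to 0.22). The peptidoglycan sensors Nod1 and Nod2 had control means of 11.4 and 1.07 TPM and ablated means of 11.8 and 0.985 TPM.

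Of 21 NLRP receptor genes 4 were tested, and the rest were below the minimum. Nlrp6, an epithelial NLRP receptor of the intestine, was the most abundant (Entrez 101613, chr7:140920902-140929192). It stood at 115, 83.7, 92.1, 105 and 90.2 TPM in controls and at 39.1, 72.8 and 87.2 TPM in ablated libraries (lowest, median, highest). The lowest control exceeded 5 of the 7 ablated libraries, and the lowest of all was ablated 1. The difference was -0.64 (95% interval -1.08 to -0.19), unadjusted p 0.00874, adjusted p 0.198 by limma. With the mitochondrial share as a covariate the difference was -0.65 and the adjusted p 0.0128.

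Nlrp9b, which encodes an intestinal receptor for viral RNA, varied most among the tested NLRP genes. Its control values were 40.5, 54.6, 55.4, 43.5 and 39.5 TPM and its ablated values 14.9, 54.3 and 133 TPM, with 3 ablated libraries above and 3 below all controls. The difference of -0.17 (95% interval -1.19 to 0.85) has an interval that reaches more than 1 log2 unit below 0. Nlrp1b, a sensor cleaved by pathogen proteases, gave 4.23 ± 0.284 TPM (SD, n = 5) in controls and 4.78 ± 1.36 TPM (SD, n = 7) in ablated libraries, a difference of 0.12. Nlrp10, an NLRP protein without the leucine-rich repeats of the family, gave 1.76 ± 0.224 TPM (SD, n = 5) in controls and 2.99 ± 1.46 TPM (SD, n = 7) in ablated libraries. Its difference was 0.52 (95% interval -0.08 to 1.12), adjusted p 0.520 by limma and 0.0354 with a weight for each library.

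Nlrp3, the best studied inflammasome sensor of myeloid cells, was too low to be tested, at 0.512 ± 0.440 TPM (SD, n = 5) in controls and 0.494 ± 0.522 TPM (SD, n = 7) in ablated libraries. The highest libraries were control 4, at 1.27 TPM, and ablated 3, at 1.63 TPM, and without them the means were 0.324 and 0.305 TPM. The full means rest on 123 reads in 5 controls and 171 reads in 7 ablated libraries. Of the other NLRP genes below the minimum, Nlrp2, Nlrp9a, Nlrp9c and Nlrp4d had no read in any library. A count of 0 (an upper limit of 3 reads) allows up to 0.112 RPM in the deepest library and 0.224 RPM in the shallowest, where RPM is reads scaled by library depth. Clec4f and Clec3a were also at 0 throughout, and the remaining 25 untested members had some reads but a group mean of at most 0.512 TPM.

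ASC and AIM2 gave differences of opposite sign. Pycard, which encodes the ASC adaptor, stood at 152, 147, 154, 162 and 163 TPM in controls and at 77.6, 149 and 165 TPM in ablated libraries. Of the latter, 3 were below all controls and 1 above them. The difference was -0.24 (95% interval -0.59 to 0.12), adjusted p 0.654 by limma, and with the mitochondrial share as a covariate -0.25 with an adjusted p of 0.0304. Aim2, which encodes a sensor of cytosolic double-stranded DNA, was at 63.6, 54.9, 59.5, 50.9 and 51.2 TPM in controls and 58.2, 67.2 and 98.5 TPM in ablated libraries. In 5 of 7 ablated libraries it exceeded the highest control, most of all in ablated 1. The difference of 0.33 (95% interval 0.05 to 0.61) had an unadjusted p of 0.0229 and an adjusted p of 0.302 by limma, and the adjusted p was 0.00946 with the same covariate. The mitochondrial share was itself highest in ablated 1. Across the ablated libraries it ran in the reverse order of the summed epithelial markers, as given below. The covariate fit therefore does not separate the share from epithelial content, and the cause of these differences was not tested.

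Casp1, the effector of the inflammasome, was the second most abundant of the 90 genes. It stood at 190.0, 199, 175, 194 and 213 TPM in controls and 148, 187 and 237 TPM in ablated libraries, and the ablated values lay on both sides of the control range. The difference was -0.04 (95% interval -0.29 to 0.21), adjusted p 0.950 by limma. Casp4, which encodes the mouse caspase-11 that binds intracellular lipopolysaccharide, gave 39.0 ± 2.85 TPM (SD, n = 5) in controls and 49.8 ± 20.1 TPM (SD, n = 7) in ablated libraries, with ablated 1 and ablated 5 at 77.3 and 80.5 TPM. Its difference was 0.27 (95% interval -0.21 to 0.74). Casp12, a neighbour of both on chromosome 9, gave 10.5 ± 1.18 TPM (SD, n = 5) in controls and 9.72 ± 3.47 TPM (SD, n = 7) in ablated libraries and a difference of -0.17.

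None of the 7 caspases of apoptosis and other processes passed the test. Casp8, the initiator caspase below death receptors, was at 72.6 ± 10.5 TPM (SD, n = 5) in controls and 69.3 ± 5.58 TPM (SD, n = 7) in ablated libraries, with a difference of -0.06 (95% interval -0.28 to 0.16). Casp14, a caspase known from the epidermis, gave 18.9 ± 2.31 TPM (SD, n = 5) in controls and 14.3 ± 4.74 TPM (SD, n = 7) in ablated libraries, a difference of -0.46 (95% interval -1.0 to 0.07) with an adjusted p of 0.516 by limma. The differences of Casp6, Casp2 and Casp9 were -0.11, 0.05 and 0.14.

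The C-type lectins of myeloid cells were low, and their median SD was the largest of the role groups. Of 19 genes 12 were tested, their means ran from 0.870 to 9.90 TPM, and their median SD around the group mean was 0.687 on the log2 scale against 0.374 for all members. Clec7a, which encodes the β-glucan receptor dectin-1, stood at 10.8, 6.13, 6.19, 11.8 and 6.16 TPM in controls and at 1.10, 3.40 and 27.0 TPM in ablated libraries. Ablated 3 held the highest value and the other 6 lay below every control. The difference was -0.91 (95% interval -2.15 to 0.32), adjusted p 0.610 by limma, and -1.35 with an adjusted p of 0.112 without ablated 3, which also lowered the ablated mean from 6.61 to 3.21 TPM. Clec4n, which encodes dectin-2, a receptor for fungal mannans, gave 9.15 ± 4.22 TPM (SD, n = 5) in controls and 10.4 ± 6.83 TPM (SD, n = 7) in ablated libraries, with 24.3 TPM in ablated 3. Its difference was 0.08 (95% interval -0.74 to 0.89). Clec10a, a galactose-type lectin of macrophages and dendritic cells, gave 2.49 ± 0.856 TPM (SD, n = 5) in controls and 2.15 ± 1.50 TPM (SD, n = 7) in ablated libraries. Clec4a1, of the DCIR type, gave 6.33 ± 1.28 TPM (SD, n = 5) in controls and 7.08 ± 2.71 TPM (SD, n = 7) in ablated libraries. The differences of Clec10a and Clec4a1 were -0.35 and 0.09.

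The remaining genes with the Clec prefix include several that are not known as microbial receptors. Clec2d (Entrez 93694, chr6:129180615-129186534), which encodes a ligand of the NKR-P1 receptors of natural killer cells, had the smallest p among the 59. It stood at 231, 206, 200.4, 172 and 136 TPM in controls and at 75.4, 112 and 155 TPM in ablated libraries (lowest, median, highest). The lowest control exceeded 4 of the 7 ablated libraries. The difference was -0.73 (95% interval -1.16 to -0.29), unadjusted p 0.00322, adjusted p 0.120 by limma, and 0.0347 with a weight for each library. Clec2h, a related lectin, was the most abundant of the 90 at 301 ± 33.1 TPM (SD, n = 5) in controls and 352 ± 55.3 TPM (SD, n = 7) in ablated libraries, with a difference of 0.22 (95% interval -0.05 to 0.48).

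Clec16a, which encodes a protein of autophagy and endosomal traffic, was the only tested member whose groups did not overlap. Its values were 5.62, 4.61, 4.55, 5.28 and 5.84 TPM in controls and 5.99, 6.32 and 8.78 TPM in ablated libraries. That 1 gene is 1.69% of the 59, against 2.88% of all genes tested whose groups did not overlap. The difference was 0.40 (95% interval 0.11 to 0.69), adjusted p 0.217 by limma and 0.0230 with a weight for each library. Clec3b, which encodes the secreted protein tetranectin, gave 41.3 ± 9.75 TPM (SD, n = 5) in controls and 32 ± 17.5 TPM (SD, n = 7) in ablated libraries, a difference of -0.49 (95% interval -1.17 to 0.19).

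**Figure D3:**
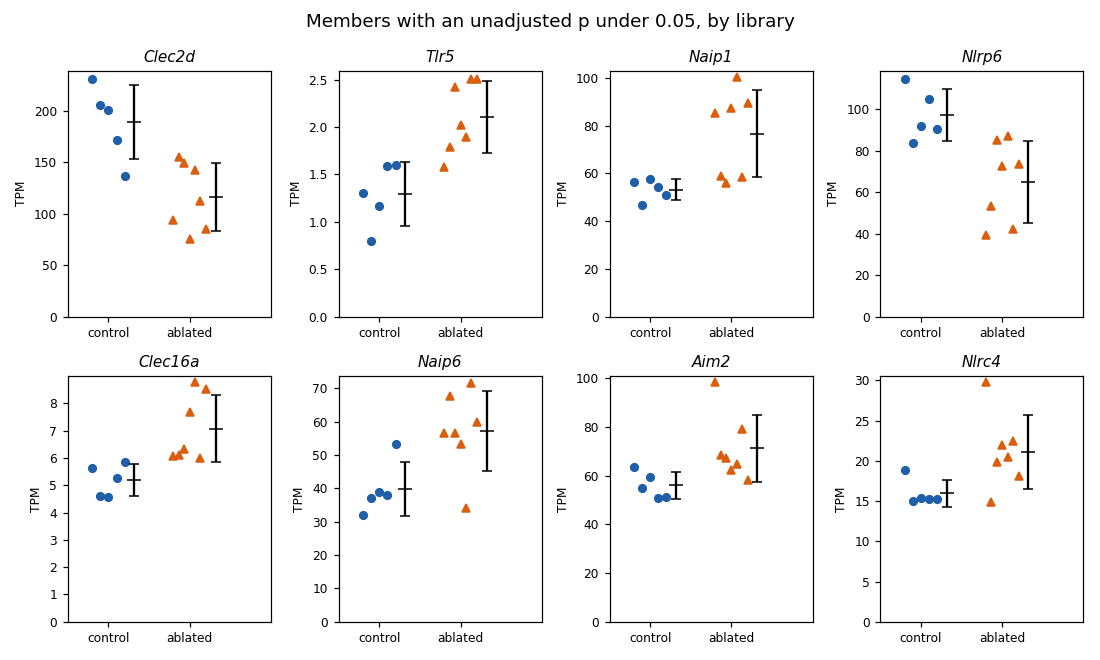
TPM in each library for the 8 members with an unadjusted p under 0.05 (limma), with 5 control and 7 ablated libraries as points and the group mean and SD as a bar. Tlr5, Naip1, Naip6, Nlrc4, Aim2 and Clec16a had higher ablated means and Nlrp6 and Clec2d lower ones, and only the points of Clec16a are fully apart.

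Individual ablated libraries were at the extremes of many members at once. Ablated 3 held the highest value of the 12 libraries for 21 of the 59 tested members. The lowest value fell in ablated 6 for 12 and in ablated 1 for 11. The same counts were not taken over all genes, so they do not show a trait of these members. The summed TPM of 10 macrophage markers was 599.7 to 1001 in controls and 272 to 1957 in ablated libraries, with a median of 493 in the latter, and ablated 3 held the maximum. All 10 were tested and none passed, with 2 above 0 and 8 below; none was at 0 in all libraries. Monocyte and neutrophil markers, dendritic cell markers and T and NK cell markers were highest in ablated 3 as well, at summed TPM of 242, 33.9 and 21.3. The second highest monocyte and neutrophil sum and dendritic cell sum were in control 4, at 220.3 and 21.9 TPM. The 6 B and plasma cell markers were all below 0, with a median log2 difference of -1.40. None passed the adjustment by limma and 5 of the 6 had an unadjusted p under 0.05. They summed to 509 to 821 TPM in controls and 84.2 to 514 TPM in ablated libraries. The part of these cells in the differences above was not tested.

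To describe how members varied beside these markers, each of the 59 was set against the macrophage sum and the epithelial sum across the 7 ablated libraries, with log2(TPM + 0.5) of the gene against log2 of the sum. This gave 118 relations, each with an exact permutation test over 5040 orders whose smallest possible p was 0.000198. Genes outside the 59 were not set against the sums, so the counts that passed do not show a trait of these members. Both sides of each relation are TPM of the same libraries and share their scaling. The sums weigh abundant markers most: Lyz2 made up 43.6 to 80.4% of the macrophage sum and Krt8 60.8 to 69% of the epithelial sum in the ablated libraries. Against the macrophage sum 10 members passed the adjustment by Pearson's r, all positively, and 3 of them, Clec12a, Clec5a and Clec3b, also by Spearman's rho. They were the receptors Clec12a, Clec5a, Clec4a3, Clec4d, Clec4n and Clec7a, the RNA sensors Tlr7 and Tlr13, the NOD-like receptor Nlrc3 and the secreted Clec3b. Clec12a, an inhibitory receptor for uric acid crystals, had r = 0.960 and rho = 0.964 (exact permutation, p 0.000397 and 0.00278, adjusted p 0.00780 and 0.0410), and r = 0.945 without ablated 2 and 3.

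Tlr7, a sensor of single-stranded RNA, had r = 0.984 and rho = 0.893 (exact permutation, adjusted p 0.0182 and 0.0907), and r = 0.875 without ablated 2 and 3. For Clec7a the values were r = 0.928 and rho = 0.786 (exact permutation, adjusted p 0.0337 and 0.246), but r was 0.591 without ablated 2 and 3, so its relation rests in large part on those libraries. For Clec4d and Nlrc3, r was 0.556 and 0.512 over the 5 libraries left. Over those 5, r was between 0.726 and 0.967 for the other 7. With the mean of log2(TPM + 0.5) over the 10 markers in place of the sum, 7 of the 10 members passed (exact permutation, adjusted p under 0.05), and with the sum without Lyz2, 6 of them did; both alternatives were chosen after seeing the data. Clec7a, Clec4d and Nlrc3 passed under neither, at r = 0.760, 0.831 and 0.665 without Lyz2, and Clec4n did not pass without Lyz2, at r = 0.885.

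**Figure D4:**
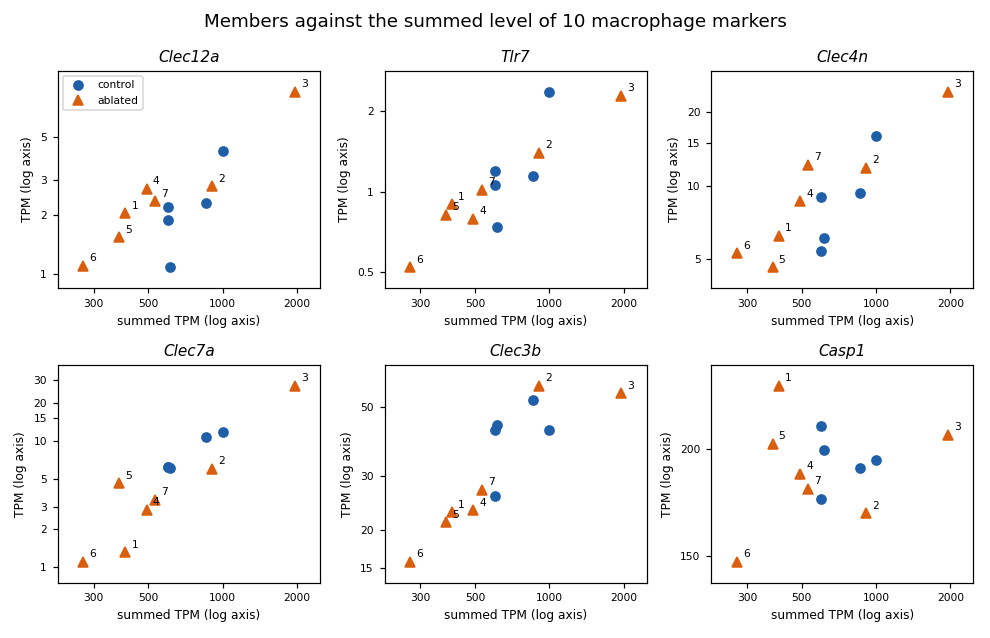
TPM of Clec12a, Tlr7, Clec4n, Clec7a, Clec3b and, for contrast, Casp1 (vertical axes, log10) against the summed TPM of 10 macrophage markers (horizontal axis, log10), 1 point per library, controls and ablated libraries in different colours. Among the ablated libraries Clec12a, Tlr7, Clec4n and Clec7a are highest in ablated 3, where the marker sum is 1957 TPM, Clec3b in ablated 2 and Casp1 in ablated 1.

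Against the epithelial sum, 6 members passed the adjustment by Pearson's r positively and 4 negatively. These counts too were not taken over all genes, so they do not show a trait of these members. Pycard had r = 0.973 and rho = 0.964 (exact permutation, adjusted p 0.00780 and 0.0410), and Casp6, an effector caspase, had r = 0.973 and the same rho. Casp9, an initiator caspase of apoptosis, and Clec14a, a lectin of blood vessels, had r = 0.882 and 0.898. In the opposite direction, Aim2 had r = -0.987, Naip5 r = -0.978 and Nlrp9b r = -0.945, each with a rho of -1 (exact permutation, p 0.000198 for r, adjusted p 0.00780 for r and 0.0156 for rho). Ly96 was the fourth, at r = -0.915. Thus in the ablated libraries with the highest epithelial sum Pycard and Casp6 were high and Aim2, Naip5 and Nlrp9b were low. With the mean of log2(TPM + 0.5) over the 6 markers 8 of the 10 passed (exact permutation, adjusted p under 0.05), and with the sum without Krt8 7 of them did. Aim2, Naip5, Nlrp9b, Pycard, Casp6 and Clec14a passed under both of these alternatives, Ly96 only under the first and Casp9 under neither. Ablated 1 and 6 were the libraries farthest from the median sum. Without them r was 0.968 for Pycard, -0.960 for Aim2, -0.951 for Naip5 and -0.941 for Nlrp9b. In the libraries left, the epithelial sum still ran in the opposite order to the mitochondrial share, so this comparison does not separate them. Across all 7 ablated libraries the order by epithelial sum was exactly the reverse of the order by mitochondrial share of reads. Ablated 1 had the lowest sum and the highest share (4441 TPM and 18.7%), ablated 7 the reverse (9557 TPM and 3.56%). Relations with the epithelial sum therefore cannot be told apart from relations with the mitochondrial share here. Ablated 6 had the highest muscle sum. The part of the mitochondrial share and of muscle in these relations was not tested.

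**Figure D5:**
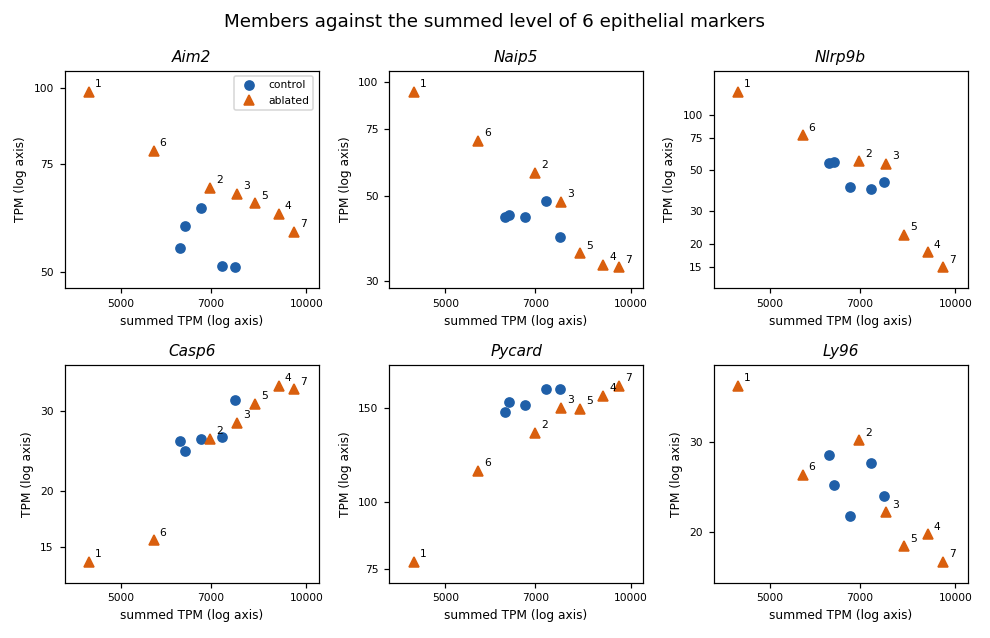
TPM of Aim2, Naip5, Nlrp9b, Casp6, Pycard and Ly96 (vertical axes, log10) against the summed TPM of 6 epithelial markers (horizontal axis, log10), 1 point per library, controls and ablated libraries in different colours. Across the 7 ablated libraries, whose sums run from 4441 to 9557 TPM, Pycard and Casp6 are generally higher and Aim2, Naip5, Nlrp9b and Ly96 generally lower as the sum is higher.

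Because Aim2, Naip5, Nlrp9b, Pycard and Casp6 followed the epithelial sum most closely and in opposite directions, their promoters are printed for comparison. Each is the 250 bases before the RefSeq start in GRCm38.p6, 5′ to 3′ on the gene's strand, with AGGAAGT, the letters of an ETS factor site, in capitals on either strand (ACTTCCT where it lies on the other). Those of Aim2 and Nlrp9b lie inside the longer gene spans of GENCODE vM21. That of Naip5 lies upstream of the GENCODE span, which ends at 100246323, and does not adjoin it.
Aim2, chr1:173420354-173420603, plus strand: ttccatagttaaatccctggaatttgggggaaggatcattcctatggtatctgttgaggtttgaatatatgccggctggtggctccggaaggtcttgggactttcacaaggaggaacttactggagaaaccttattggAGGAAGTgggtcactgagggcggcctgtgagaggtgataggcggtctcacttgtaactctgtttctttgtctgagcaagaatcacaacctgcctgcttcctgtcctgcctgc
Naip5, chr13:100247337-100247586, minus strand: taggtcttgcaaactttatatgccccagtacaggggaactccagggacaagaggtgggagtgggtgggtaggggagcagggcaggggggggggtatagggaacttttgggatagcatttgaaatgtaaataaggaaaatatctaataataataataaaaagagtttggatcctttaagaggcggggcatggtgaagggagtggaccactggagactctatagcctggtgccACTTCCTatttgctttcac
Nlrp9b, chr7:20007773-20008022, plus strand: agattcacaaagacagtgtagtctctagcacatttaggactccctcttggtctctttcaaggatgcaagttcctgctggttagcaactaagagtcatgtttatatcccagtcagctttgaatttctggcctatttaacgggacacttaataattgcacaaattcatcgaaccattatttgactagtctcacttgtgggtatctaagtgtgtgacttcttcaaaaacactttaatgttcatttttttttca
Pycard, chr7:127993868-127994117, minus strand: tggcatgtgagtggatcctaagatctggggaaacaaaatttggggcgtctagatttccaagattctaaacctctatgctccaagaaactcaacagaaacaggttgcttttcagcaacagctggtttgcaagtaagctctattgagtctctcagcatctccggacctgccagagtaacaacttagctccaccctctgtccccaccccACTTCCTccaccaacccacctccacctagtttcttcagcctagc
Casp6, chr3:129901165-129901414, plus strand: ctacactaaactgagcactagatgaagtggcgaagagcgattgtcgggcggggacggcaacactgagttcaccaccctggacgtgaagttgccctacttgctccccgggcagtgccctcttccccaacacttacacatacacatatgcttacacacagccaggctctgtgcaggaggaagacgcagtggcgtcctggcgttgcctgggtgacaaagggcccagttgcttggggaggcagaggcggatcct

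AGGAAGT occurs in the promoters of Aim2, Naip5 and Pycard and not in those of Nlrp9b and Casp6, so both directions of the relation include promoters with and without it. Promoters were listed for 72 of the 90 genes. Of them, 13 (18.1%) hold AGGAAGT on either strand, against 7.80% of 27025 promoters of the same length. The 13 include related neighbours, such as Naip2 with Naip5 and Tlr1 with Tlr6, so they are not independent. They also include Nlrp1a, Nlrp4c and Tlr11, which were below the minimum for testing. TTTATGG, the letters of a CDX2 site, is in 0 of 72 and in 2.45% of all. Among the promoters of 15 myeloid lectins, 0 hold AGGAAGT. These are matches of letters in a window and were not tested as sites.

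Genes elsewhere in the same pathways gave the same count of calls. Of 101 genes on 6 lists of signalling partners and products, 99 were found and 98 tested; 0 passed by limma and 5 had an unadjusted p under 0.05. That is 5.10% of those tested, against 11.8% of all genes. The lists were Toll-like receptor signalling (21 tested, 12 above 0 and 9 below), NF-kB and NOD signalling (22, 14 and 8), inflammasome partners and products (16, 9 and 7), cytosolic nucleic acid sensing (8, 5 and 3), caspase regulators (16, 6 and 10) and inflammatory cytokine targets (15, 8 and 7). Map3k7, the kinase TAK1 below Toll-like receptors, was at 18.0 ± 0.578 TPM (SD, n = 5) in controls and 21.2 ± 1.43 TPM (SD, n = 7) after ablation, a difference of 0.23 (95% interval 0.05 to 0.41) with an adjusted p of 0.264 by limma. Chuk, the kinase IKKα of the NF-kB pathway, was at 33.0 ± 3.30 TPM (SD, n = 5) in controls and 44.4 ± 8.90 TPM (SD, n = 7) after ablation, a difference of 0.40 (95% interval 0.10 to 0.71) with an adjusted p of 0.242. Il1rn, which encodes the interleukin-1 receptor antagonist, was at 47.5 ± 4.40 TPM (SD, n = 5) in controls and 65.6 ± 22.1 TPM (SD, n = 7) after ablation, a difference of 0.41 (95% interval -0.01 to 0.82).

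Ptgs2, the inducible cyclooxygenase, was the cytokine-target gene with the smallest p, at 3.54 ± 1.81 TPM (SD, n = 5) in controls and 11.2 ± 11.9 TPM (SD, n = 7) after ablation, a difference of 1.22 (95% interval 0.15 to 2.29) with an adjusted p of 0.329 by limma. Ablated 6 held 36.8 TPM and the other 6 ablated libraries 4.24 to 15.3 TPM. Without ablated 6 the ablated mean was 6.94 TPM, and the difference was 0.87 with an adjusted p of 0.359. Trim25, a ubiquitin ligase acting on the RNA sensor RIG-I, was at 31.4 ± 3.97 TPM (SD, n = 5) in controls and 41.6 ± 12.7 TPM (SD, n = 7) after ablation, and Diablo, an antagonist of inhibitor of apoptosis proteins, at 36.5 ± 1.57 TPM (SD, n = 5) in controls and 31.5 ± 4.16 TPM (SD, n = 7) after ablation. Their adjusted p-values by limma were 0.536 and 0.444. The caspase-1 substrates Il18 and Il1b, named here after their values were seen, gave differences of 0.23 (95% interval -0.02 to 0.47) and -0.13 (95% interval -1.37 to 1.10). Il18 averaged 265 TPM in controls against 5.61 TPM for Il1b. Without control 4, at 14.1 TPM, the control mean of Il1b was 3.49 TPM, and without ablated 3, at 15.6 TPM, its ablated mean was 3.27 TPM.

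The authors' deposited table of their own edgeR comparison gave no call among the 90 either. The FDR in the authors' deposited table was under 0.05 for 0 of the 90, against 1.13% of its 27179 genes, and 9 had a p-value under 0.05 in that table, which is 10% of the members, against 9.44% of its genes. The 9 include Nlrp4c, which was below the minimum for testing here, with 2 reads in all controls and 0 in all ablated libraries. The smallest FDR values in the authors' deposited table belonged to Clec2d (0.0950), Nlrp6 (0.129) and Tlr5 (0.233).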

How the data were processed

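The 12 colon libraries, 5 control and 7 ablated, were grouped by genotype. They are stranded libraries of polyadenylated RNA isolated with Trizol, per the labels' protocols. According to the submitters' processing notes, bcl2fastq 2.17, HISAT and featureCounts were used with the mm10 build; other versions are not given in the sources used here. The authors deposited TPM per gene, and the 12 per-sample files hold the same values as the table of all samples. A deposited table of the authors' edgeR results also holds log2 fold changes and log2 CPM, an F score, a p-value and an FDR per gene; these are quoted only where that table is named. How the authors computed TPM from counts is not given in the sources used here.

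A gene was tested where 5 or more libraries had 0.5 TPM or more, which took 16164 genes. The test was two-sided, in limma 3.58.1 (R 4.3.3) with a trended empirical Bayes step, on log2(TPM + 0.5), which understates fold changes of low genes, with Benjamini-Hochberg adjustment over all of them and a threshold of 0.05. Read counts were recovered from the steps of the TPM values, and 100% of values came out whole within 0.05 read for the 22840 of 22842 genes with a recovered length. The r of the resulting log2 CPM with the authors' deposited log2 CPM was 0.99985. The voom fit on these reads was chosen after seeing the data. The depth, 13365756 to 26869845 reads, limits genes near 0, and limits from a count of 0 (3 reads) cover counting error only.

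The members, their roles and the marker and pathway lists were chosen with earlier results of these data known. Named are members whose groups do not overlap or that passed, in each role the 3 with the highest mean and the 2 with the smallest p, a fixed set of well-known sensors, and in each pathway list the gene with the smallest p. The values of 2 members are not reported here, though the counts over members include them. Members named for the relations with marker sums and other members outside this rule were chosen after their values were seen. Promoters came from RefSeq (GRCm38.p6, 72 of 90 members matched by gene ID), and shared windows of 75 bases from GENCODE vM21 transcripts. The fitting script was tested on simulated data with known changes. Alternatives changed the added constant, the minimum, the scaling, the weights, the covariates and the libraries included.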

Additional observations from a re-analysis of the deposited data

Results flagged for a closer look

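Of 70 groups of libraries examined, 2 held a library far from the others of its group, and chance gives such a gap in about 1 of 20 groups. Naip6 in ablated 5, the lowest of the 7 ablated libraries, was at 34.1 TPM while the others were at 53.4 to 71.7 TPM. Nlrc4 in control 1, the highest of the 5 controls, was at 18.9 TPM while the others were at 15.1 to 15.4 TPM.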

How the results depend on the processing

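The count of members called was 0 higher and 0 lower under added constants of 1 and 0.1 TPM, no minimum, a minimum of 1 TPM, median-of-ratios and quantile scaling, the replicate block and voom on recovered reads. A weight per library gave 4 members higher (Clec16a, Naip1, Tlr5 and Nlrp10) and 1 lower (Clec2d), among 654 genes higher and 438 lower in all. The mitochondrial share as covariate gave 1 higher (Aim2) and 2 lower (Nlrp6 and Pycard), among 337 and 379. Leaving out each library in turn gave 0 to 1 members higher (Naip6 without ablated 5) and 0 to 0 lower, while calls over all genes ran from 23 to 126 higher and 105 to 202 lower, against 68 and 163 with all libraries. Without a minimum 273 genes were lower. The cause was not tested.

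Controls and ablated libraries share the numbers 1 to 5, but nothing in the labels pairs them. The correlation of deviations between same-numbered libraries was 0.00935, 0.36, -0.27, 0.20 and 0.16 for numbers 1 to 5, and control 1, 3, 4 and 5 did not correlate best with their own number. The replicate block over those 10 libraries called 15 genes higher and 74 lower, with 0 members in either direction. The log2 differences of 30 of the 59 tested members, none of them called, changed sign under some alternative, and all 30 lay within 0.35 log2 unit of 0 with all libraries. Those named in the report are Casp1, Casp2, Casp6, Casp8, Cd14, Clec10a, Clec12a, Clec14a, Clec4a1, Clec4a3, Clec4n, Ly96, Myd88, Naip5, Nlrc3, Nlrp9b, Nlrx1, Nod1, Nod2, Ticam1, Tlr13, Tlr6, Tlr7 and Tlr8. Under the scalings tried, the median of all genes moved by at most 0.1 log2 unit. Low genes such as Tlr5, Tlr8 and some myeloid lectins rest on few reads per library. Tlr8 had 97 reads in all controls and 120 in all ablated libraries, and Clec10a had 215 and 255. The more abundant lectins had more, with 1092 and 1305 for Clec7a. Under each of the other marker summaries, 7 members in all passed against the macrophage markers and 8 against the epithelial markers, where the sums gave 10 and 10. No such counts were taken over all genes.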
